A study of Mus musculus with 92 samples.

Results

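The rows examined here were the genes of ribosome biogenesis and of the nucleolus in single blastomeres of 8-cell mouse embryos. A row was a member where its symbol began with Utp, Nop, Rrp or Nol followed by a digit, with Polr1 or with Nhp2, or was Imp3, Imp4, Gar1, Rrs1, Bop1, Pes1, Dkc1, Fbl, Ncl, Npm1 or Mphosph10. Of 54 symbols of the annotation that met the rule, 51 had a row among the 7886 genes of the count table. By their known roles, 5 were RNA polymerase I subunits, 3 proteins of box C/D small nucleolar RNPs, 4 proteins of box H/ACA small nucleolar RNPs, 23 factors of small subunit assembly, 13 factors of large subunit assembly and 2 the abundant nucleolar proteins nucleolin and nucleophosmin. The last, Nol4l, met the rule by its symbol and is not known as a ribosome assembly factor. All 51 were tested, and 43 had at least 1 read in every cell, as 34.1% of all genes did.

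The embryos were C57BL/6N wild type, and in each one the zygote had been microinjected with a negative control (NC), a microRNA labelled mi699a-5p, let-7e (the group Let7e) or let-7d (the group Let7d). The libraries were made with Smart-seq2, which copies full-length mRNA of one cell and adds no molecular identifiers, so counts are reads. After a near-identical pair of Let7d cells was merged, NC held 22 cells of 3 mouse ids, Let7d 18 cells of 3, Let7e 20 cells of 4 and mi699a-5p 21 cells of 4. Counts were summed over the cells of a mouse id, which is the unit of comparison; in such a sum, fewer cells with a transcript and less of it per cell cannot be told apart. What a mouse id is (embryo, mother or donor) is not stated in the labels. As labelled, 3 of the 14 ids (NC replicate 2, Let7e replicate 1 and mi699a-5p replicate 4) held both cells with Xist over 50 CPM and hardly any Y-linked reads and cells with Y-linked reads and little or no Xist, so those ids cannot be 1 embryo each. The p-values therefore measure only the spread between ids. Each group has ids of its own, so that the injected material and a batch cannot be told apart.

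Ribosomes are assembled in the nucleolus. RNA polymerase I transcribes the precursor of the large ribosomal RNAs, small nucleolar RNPs modify it (box C/D RNPs by methylation of ribose, box H/ACA RNPs by conversion of uridine to pseudouridine), and sets of assembly factors, among them the U3 snoRNP and the small subunit processome, fold it, cut it and join it to ribosomal proteins. The newly fertilised mouse egg carries compact nucleolus precursor bodies in place of working nucleoli, and transcription of ribosomal DNA resumes in the first cleavage stages. The let-7 microRNAs guide Argonaute proteins to mRNAs that pair with their seed, bases 2 to 8.

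The injected let-7 microRNAs are shown because both carry one seed, so that the same sites are read in both groups. The mature sequences are those of RefSeq (GRCm38.p6, chromosome 13 from 48536078 to 48536099 on the minus strand for let-7d and chromosome 17 from 17830366 to 17830387 on the plus strand for let-7e), written 5′ to 3′ with the seed in capitals.
mmu-let-7d-5p: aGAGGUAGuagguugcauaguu
mmu-let-7e-5p: uGAGGUAGgagguuguauaguu
Counted from the 5′ end, with the let-7d base first, they differ by A1U, U9G and C16U, all outside the seed. The complement of the seed, CTACCTC, was looked for on the transcript strand of the longest annotated 3′ UTR of each gene. It was present in 8 of 51 members (15.7%) and in 794 of 7601 genes with an annotated 3′ UTR (10.4%). These UTRs had a median length of 845 bases in members and 1143 in all genes, and the shares were not adjusted for length. The 8 were Imp4, Nol12, Nol4l, Nop9, Rrp12, Rrp1b and Rrp7a with 1 match each and Utp14b with 2. The longer match, with an A after these 7 bases, was present in 1 of 51 members, Nol4l (1.96%). It was present in 280 of the 7601 genes (3.68%). A match is a description of the sequence and does not show that the transcript is bound. The matches of 3 members on which the results below turn are given with 10 bases on either side and the match in capitals.
Nop9: catatcagctCTACCTCcaggtgtttt
Nol12: aggggtccatCTACCTCcaggttttcc
Rrp7a: ttccctgcccCTACCTCtgctgaagga
The match of Nop9 lay on chromosome 14 from 55755335 to 55755341, that of Nol12 on chromosome 15 from 78940953 to 78940959 and that of Rrp7a on chromosome 15 from 83116499 to 83116505 (minus strand).

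A cell carried 1575609 to 4950404 reads (median 2736612) and a mouse id 6329464 to 24037593. Of the markers of early embryo cells, 7 of 8 had a row, while cumulus and granulosa cells (0 of 10), sperm (0 of 5) and blood or stroma (0 of 6) had none. Before deposition the table had been filtered on expression, so these types were not measured. Ribosomal RNA rows took 5.92% ± 2.62 (SD over 3 ids) of the reads of Let7d and 13.3% ± 3.55 (3 ids) of those of NC. In mi699a-5p they took 9.96% ± 1.98 (4 ids) and in Let7e 8.72% ± 3.72 (4 ids). All 3 Let7d ids lay below all 3 NC ids in that share. Xist, the transcript of the inactive X chromosome, stood at 0, 110.1 and 1.50 CPM (read counts scaled to one total in every library) in the NC ids and at 0, 422 and 541 in the Let7d ids, so the sexes were not evenly spread over the groups. For members and pathway genes, CPM by mouse id were scaled with the TMM factors of edgeR as well. Those of Xist and of single cells were not. In 3 cells of mi699a-5p the members lay far from the other cells. Their members departed from the all-cell median by a median of 1.14, 1.32 (cells E1 and F1 of replicate 1) and 1.41 (cell E2 of replicate 2) on the log2 scale, against at most 0.73 in the other 78 cells. These cells had 2376284, 1608320 and 2312759 reads. Over all genes their departures were 1.26, 1.62 and 1.57, and the highest of the others was 1.25. Counts for mi699a-5p, the spread between cells and the pairs are given with and without them, a choice made after the values were seen.

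The members were transcripts of middle to high level. Per kb of exon, the 51 members had a median of 47.5 CPM, against 9.96 CPM over all genes. Npm1, which encodes the histone and ribosome chaperone nucleophosmin, stood first at 733 ± 138 CPM per kb (SD over 14 mouse ids), and Nhp2, a core protein of box H/ACA RNPs, followed at 465 ± 103. Both kept these places when the coding length was used. Then came Utp3 (169 CPM per kb), Ncl (168), Polr1c (166), Imp3 (151), Nop56 (132) and Dkc1 (98.2), each of whose ranges over mouse ids overlapped that of the next. Their order depended on the length: per kb of coding sequence Ncl had rank 3 and Utp3 rank 15, since the exons of all annotated transcripts of Ncl add up to 10188 bases. The lowest were Utp14b (6.65 CPM per kb) and Nol4l (4.75). By role the medians were 36.8 CPM per kb for polymerase I subunits, 73.9 for box C/D, 95.0 for box H/ACA, 33.2 for small subunit and 50.8 for large subunit factors. Transcripts of Npm1 have many processed copies in the genome, and reads of such copies may have been counted with the gene or lost.

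**Figure D1:**
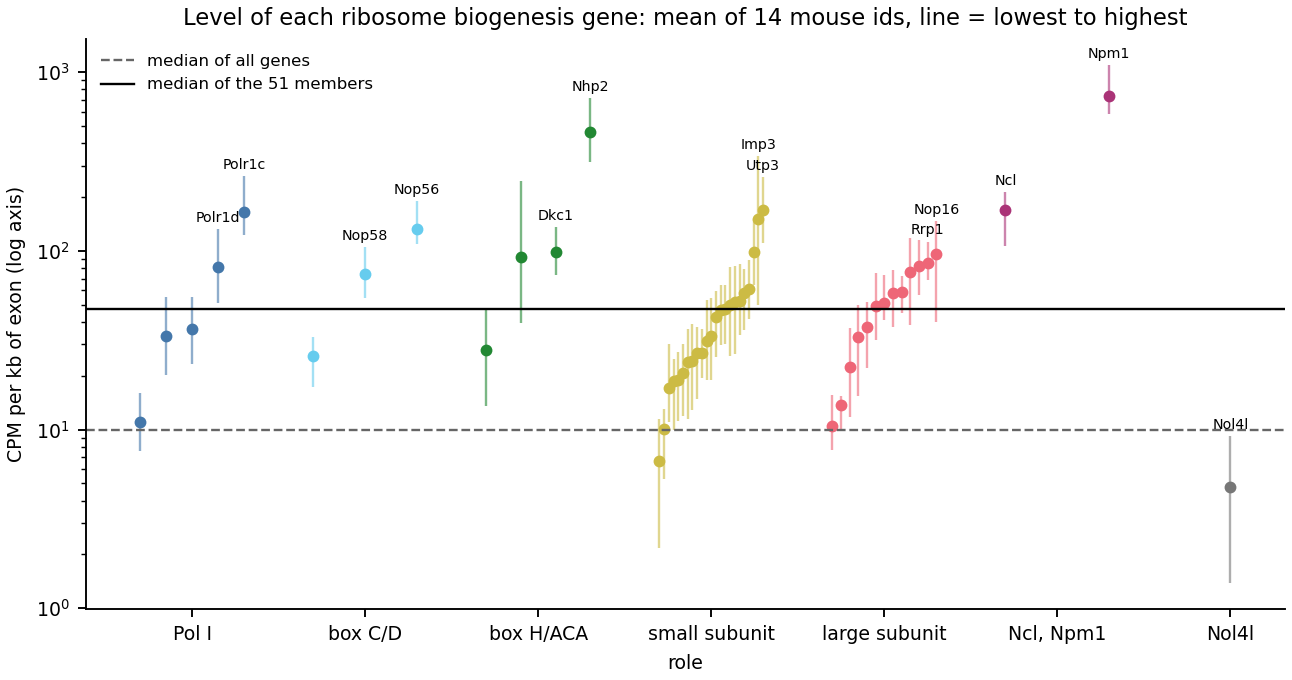
Level of each of the 51 members in CPM per kb of exon on a log axis, by role, as the mean of 14 mouse ids (point) with a line from the lowest to the highest id. Npm1 (733) and Nhp2 (465) stand above the rest, and the median of the members (47.5, solid line) lies above that of all genes (9.96, dashed line).

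As a sum, the members took 1.29% ± 0.17 of the reads of NC (SD, 3 ids) and 1.32% ± 0.13 of those of Let7d (3 ids). They took 1.36% ± 0.10 in Let7e (4 ids) and 1.26% ± 0.018 in mi699a-5p (4 ids). The 4 ranges overlapped. With ribosomal RNA and mitochondrially encoded rows left out of the total, the shares were 1.55%, 1.44%, 1.56% and 1.46%, and the order of NC and Let7d turned.  Among cells, the share ran from 1.002% to 1.80%, with a median of 1.31%.

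No member passed an adjusted p of 0.05 in any comparison (edgeR, quasi-likelihood test on summed counts, adjusted over all 7886 genes). In Let7d against NC, 0 of 51 members were called, against 0.0127% of all genes (1 gene), in Let7e against NC 0 against 0%, in mi699a-5p against NC 0 against 0%, in Let7e against Let7d 0 against 0%, and in the test of any difference among the 4 groups 0 against 0%. DESeq2 called 0 members in each of the pairwise comparisons as well. The members' standard errors had medians of 0.27 to 0.29 on the log2 scale, below the 0.43 to 0.46 of all genes.

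At an unadjusted p under 0.05 the members' shares were 5.88%, 1.96%, 1.96% and 9.8% in the 4 comparisons of 2 groups, below that of all genes in 2 and above it in 2. In Let7d against NC 3 members were past it (Dkc1 higher, Gar1 and Nop58 lower), with 4.69% of all genes, and DESeq2 added Fbl. Which members these were depended on the ids and the method. Without NC replicate 2 they were Dkc1, Mphosph10, Nop2 and Utp6, all higher in Let7d, with 5.52% of all genes. Only Dkc1 and Utp6 were past that p without Let7d replicate 2 (3.42%) and with limma on the mean over cells (5.76%). With total counts only they were Dkc1, Gar1 and Mphosph10 (5.21%). Dkc1 was not past it without NC replicate 1 (3.59%), NC replicate 3 (3.53%) or Let7d replicate 3 (5.03%). In Let7e against NC it was 1 member, Nop9, with 4.02% of all genes. That count was 0 without NC replicate 3 (3.99% of all genes) or Let7e replicate 2 (4.49%) and 2 without NC replicate 1 (2.93%) or Let7e replicate 3 (3.53%). It was 4 without NC replicate 2 (3.26%) or Let7e replicate 1 (5.77%). Without Let7e replicate 4 it stayed at 1 (4.22%), but that member was Nop16, lower in Let7e, and Nop9 was not past that p. With the replicate number as a block it was 0 (4.01%). In mi699a-5p against NC it was 1, Mphosph10, with 5.5%, and DESeq2 added Gar1. Without the 3 cells that stand apart there were 6 in mi699a-5p against NC (Gar1 and Npm1 lower, Mphosph10, Nop2, Rrp12 and Utp15 higher) and 9.31% of all genes. With all cells it was 4 without NC replicate 2 (6.43% of all genes), 3 without mi699a-5p replicate 1 (5.4%), and 2 without NC replicate 1 (3.7%) or mi699a-5p replicate 4 (4.62%). In Let7e against Let7d there were 5 (Nop9, Nol12, Nol7 and Npm1 higher, Dkc1 lower), with 5.39%, and among the 4 groups 5 (Mphosph10, Nop10, Nop9, Polr1b and Rrp7a), with 5.59%. In Let7e against Let7d it was 3 without Let7d replicate 1 (5.12%), 2 (3.92%) or 3 (5.45%) and 2 without Let7e replicate 2 (5.36%). Among the 4 groups it was 2 without NC replicate 3 (4.59%), Let7d replicate 1 (5.48%) or mi699a-5p replicate 3 (5.3%) and 7 without Let7e replicate 1 (6.78%) or 4 (5.85%).

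The median log2 fold change of the 51 members was 0.0063 in Let7d against NC, 0.054 in Let7e against NC, -0.024 in mi699a-5p against NC and 0.097 in Let7e against Let7d. Over all genes it was 0.011, 0.019, 0.045 and 0.0067. In Let7d 26 members lay above 0 and 25 below, in Let7e 31 and 20, in mi699a-5p 25 and 26, and in Let7e against Let7d 32 and 19. Scaling by total counts alone moved the Let7d median of all genes to 0.12 and that of the members with it, to 0.12. Leaving out the 3 cells that stand apart gave a mi699a-5p median of -0.076 (all genes 0.038), with 19 members above 0 and 32 below. The 3 comparisons with NC share its mouse ids and are not independent of each other.

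Few members had groups that did not overlap. Every Let7d id lay above every NC id for 2 members (Dkc1, Mphosph10), as for 6% of all genes, and below for 5 (Fbl, Gar1, Nop16, Nop58 and Rrp15), as for 5.96%. Let7e lay wholly above NC for 1 member (Rrp7a), as for 2.78%, and wholly below for 0, with 2.84% of all genes. The mi699a-5p ids lay wholly above NC for 3 members (Bop1, Mphosph10 and Utp15) and below for 0, with 4.51% and 3.87% of all genes. When the 3 cells that stand apart were left out they lay above for 6 (Bop1, Mphosph10, Nop2, Pes1, Utp15 and Utp20) and below for 4 (Fbl, Gar1, Npm1 and Polr1d), with 5.95% and 6.54% of all genes. Let7e lay wholly above Let7d for 4 members (Gar1, Nol12, Nol7 and Nop9) and below for 1 (Dkc1), with 3.12% and 2.95% of all genes.

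**Figure D2:**
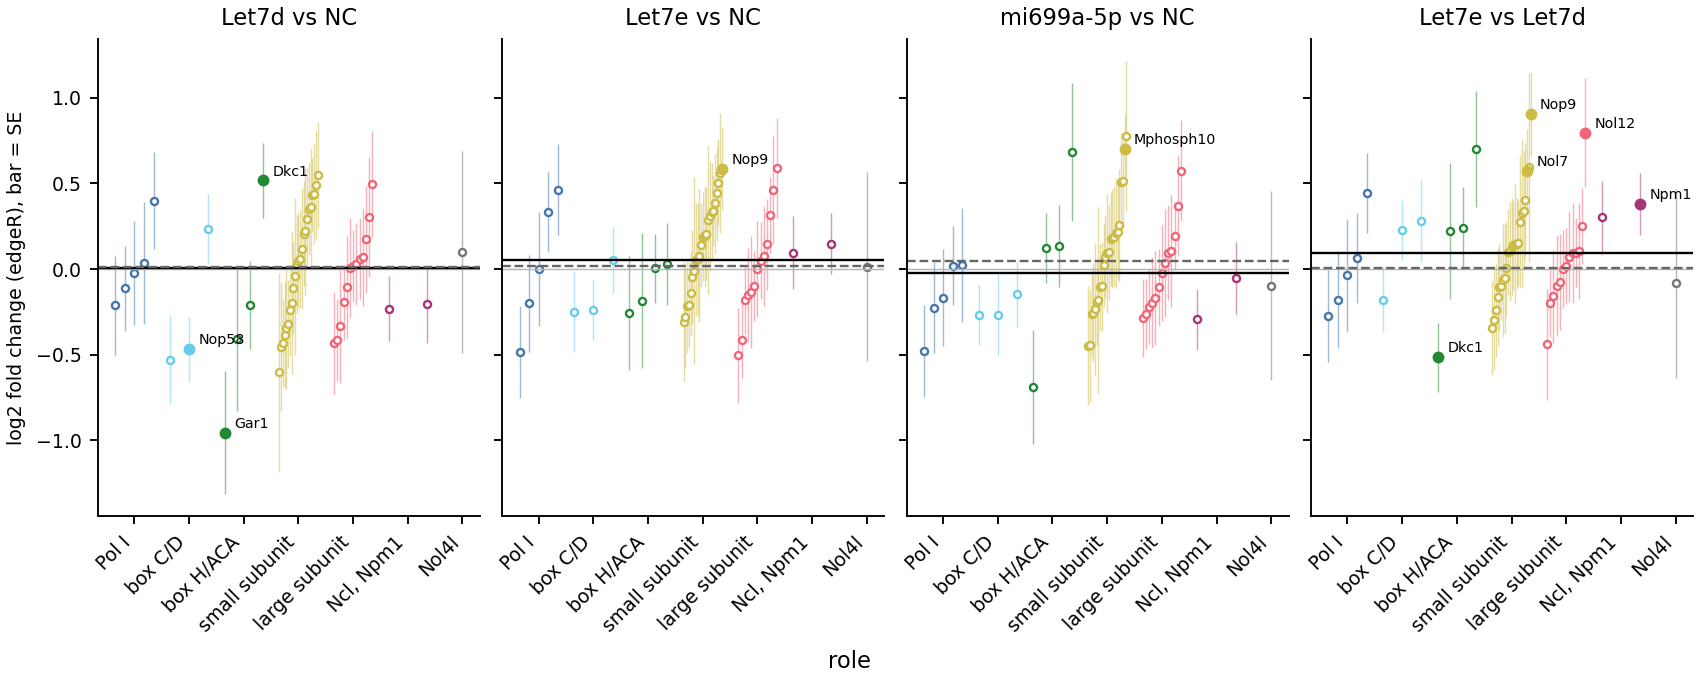
Log2 fold change (edgeR) of each member by role in 4 comparisons, bars being 1 standard error, filled points an unadjusted p under 0.05. The medians of the members (solid line) and of all genes (dashed line) lie close to 0 in every panel, and in Let7d against NC Gar1 and Dkc1, proteins of one complex, lie at -0.96 and 0.52.

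The box H/ACA core is made of dyskerin (Dkc1), the pseudouridine synthase, with Nhp2, Nop10 and Gar1, and the same proteins bind telomerase RNA. Gar1 (chromosome 3, 129824912 to 129831396) stood at 54.9, 80.8 and 57.4 CPM in the NC ids and at 36.0, 23.2 and 40.4 in the Let7d ids. In Let7e it stood at 56.8, 63.0, 54.1 and 41.8 CPM and in mi699a-5p at 58.3, 34.1, 40.9 and 26.6 CPM. All Let7d ids lay below all NC ids, with a log2 fold change (± SE from edgeR here and below) of -0.96 ± 0.36 (p = 0.0158, adjusted p = 0.986), and the other groups overlapped NC. In mi699a-5p against NC the log2 fold change of Gar1 was -0.69 ± 0.33 (p = 0.0522, adjusted p = 0.871), with 3 of 4 ids lower than any NC id, and without the 3 cells that stand apart it was -1.03 (p = 0.00449, adjusted p = 0.313). The share of ribosomal RNA also separated Let7d from NC, and its part in these differences was not tested. With those rows and the mitochondrial ones left out, 4 members were past an unadjusted p of 0.05 in Let7d against NC. These were Gar1, Nop58, Fbl and Dkc1, with 4.6% of all genes. Leaving rows out does not test the part of the ribosomal RNA share.

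Dkc1 ran the other way. It lies on the X chromosome (75095854 to 75109777) and stood at 325, 460.2 and 300.3 CPM in NC, at 501, 497 and 558 in Let7d, at 364, 314, 456 and 318 in Let7e and at 395, 426, 328 and 428 in mi699a-5p. The 3 Let7d ids were higher than every NC id and every Let7e id. Against NC the log2 fold change was 0.52 ± 0.22 (p = 0.0287, adjusted p = 0.986) and Let7e against Let7d gave -0.51 ± 0.20 (p = 0.0203, adjusted p = 0.924). Xist was present in 2 of the 3 Let7d ids, at 422 and 541 CPM, and these had 497 and 558 CPM of Dkc1. Let7d replicate 1, with Xist at 0 CPM, had 501 CPM. In NC the highest Dkc1, 460.2 CPM, was that of replicate 2, the id with the most Xist (110.1 CPM). Let7e replicate 1 (Xist at 355 CPM) had 364 CPM, between the other Let7e ids. In mi699a-5p, replicates 1 and 4 (Xist at 291 and 327 CPM) had 395 and 428 CPM, and replicates 2 and 3 (Xist at 0 CPM) had 426 and 328. The part of sex in the difference between Let7d and NC was not tested beyond a fit with the level of Y-linked genes as a covariate. There the log2 fold change of Dkc1 was 0.43 (p = 0.108, adjusted p = 0.999). In the same fit Nop58 gave -0.39 (p = 0.0949, adjusted p = 0.999) and Gar1 -1.10 (p = 0.015, adjusted p = 0.999).

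The other X-linked member, Utp14a, a small subunit factor, stood at 109, 126 and 96.6 CPM in NC and 78.7, 129 and 219 in Let7d. The Let7e ids gave 199, 124, 105 and 119 CPM and the mi699a-5p ids 153, 96.9, 107 and 155 CPM. The ranges of all groups overlapped. Of its exon length 11.5% overlaps 9530027J09Rik on the other strand. Xist stood at 110 to 541 CPM in NC replicate 2, Let7d replicates 2 and 3, Let7e replicate 1 and mi699a-5p replicates 1 and 4. Those ids had 126, 129, 219, 199, 153 and 155 CPM of Utp14a. The other ids, with Xist at 5.06 CPM or less, had at most 124 CPM of it. That value lies close to the 126 CPM of NC replicate 2, an id with cells of both sexes. How many other genes part the ids in this way was not counted. The part of the sex of the embryos in Utp14a was not tested.

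Nhp2 and Nop10 had overlapping groups in every comparison. Nhp2 stood at 629, 437 and 524 CPM in NC, 401, 474 and 502 in Let7d, 573, 568, 484 and 544 in Let7e and 820.5, 674, 470.3 and 359 in mi699a-5p. Nop10 gave 112, 89.6 and 80.3 CPM in NC, 82.6, 67.8 and 61.9 in Let7d and 119, 43.9, 59.4 and 108 in Let7e. In mi699a-5p it stood at 273, 154, 101 and 74.5 CPM, and replicates 1 and 2, the highest, are those with the cells that stand apart, in 2 of which Nop10 exceeded the median of the id's other cells by 3.43 and 3.46 on the log2 scale. Nhp2 also shares 3.8% of its exon length with Rmnd5b on the other strand.

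Fibrillarin (Fbl), the methyltransferase of box C/D RNPs, and its partners Nop56 and Nop58 form the second class. For Nop58 (chromosome 1, 59684971 to 59719044) the NC ids gave 869, 1126 and 815 CPM and the Let7d ids 793, 586 and 655 CPM. Let7e ids gave 729.6, 852, 757 and 838 CPM and mi699a-5p ids 757, 727, 785 and 841 CPM. The lowest NC id and the highest Let7d id were close, and no id of Let7d reached NC, with a log2 fold change of -0.47 ± 0.19 (p = 0.0235, adjusted p = 0.986).

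Fibrillarin itself was measured at a lower level. Fbl stood at 114, 137 and 138 CPM in NC, 87.5, 72.8 and 109 in Let7d, 108, 101, 136 and 92.6 in Let7e and 125, 118, 93.6 and 94.5 in mi699a-5p. The Let7d ids lay below the NC ids, with a log2 fold change of -0.53 ± 0.25 (p = 0.0516, adjusted p = 1), and the other groups overlapped NC. Nop56, in contrast, gave 548, 519 and 525 CPM in NC, 580.1, 509 and 779 in Let7d, 472, 481, 575 and 675 in Let7e and 472, 464, 449 and 532 in mi699a-5p. Let7d replicate 3 was the highest of all ids, and the Let7d and NC ranges overlapped. Nop56 and Nop58 carry 5 and 4 annotated small nucleolar RNAs in their introns, and with Ncl (3), Nop53 (1) and Dkc1 (1) they hold all 14 that lie within members.

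**Figure D3:**
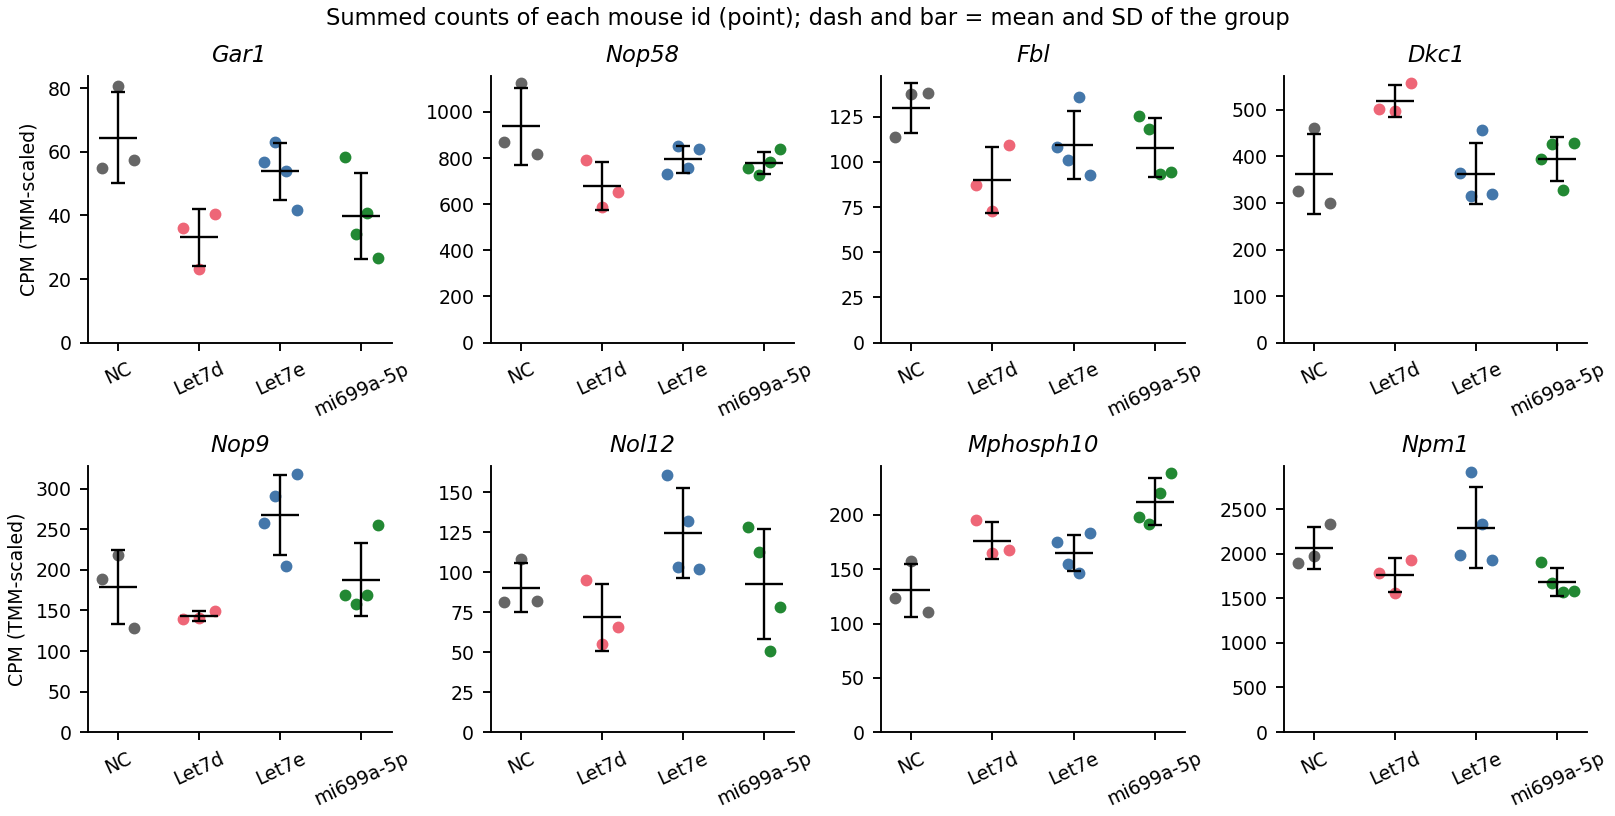
CPM (TMM-scaled) of 8 members in each mouse id (point) with the mean and SD of the group, on axes that start at 0. Gar1, Nop58 and Fbl lie lower in the 3 Let7d ids than in the 3 NC ids and Dkc1 higher, and Nop9 and Nol12 lie higher in the 4 Let7e ids than in the 3 Let7d ids.

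Among the 23 factors of the small subunit, Nop9 had the smallest p of all members, in the comparison of Let7e with Let7d. Nop9, an RNA-binding protein of Pumilio-like repeats (chromosome 14, 55745693 to 55755500), stood at 189, 218 and 128 CPM in NC and at 139, 140.2 and 150.0 in Let7d. It stood at 258, 292, 205 and 319 CPM in Let7e and at 169, 158, 169.5 and 256 in mi699a-5p. The Let7d ids were alike, and every Let7e id lay above them. Let7e against Let7d gave a log2 fold change of 0.91 ± 0.24 (p = 0.00164, adjusted p = 0.845), and Let7e against NC 0.59 ± 0.24 (p = 0.0265, adjusted p = 0.999), with 1 of the 4 Let7e ids below the highest NC id. Its 3′ UTR holds the let-7 match printed above, and Let7d against NC gave -0.32 ± 0.26. Of the exon length of Nop9, 29.9% overlaps Cideb on the other strand, a gene without a row in the count table. Reads of Cideb could not be told apart from those of Nop9 there without strand.

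Mphosph10, Imp3 and Imp4 form the Mpp10 complex, which binds the U3 snoRNP. Mphosph10 (chromosome 7, 64376527 to 64392268) gave 123, 158 and 111 CPM in NC and 196, 165 and 168 in Let7d. The Let7e ids gave 175, 155, 147 and 183 CPM and the mi699a-5p ids 198, 192, 221 and 239 CPM. Every mi699a-5p id and every Let7d id was above every NC id. Against NC the log2 fold change was 0.70 ± 0.21 in mi699a-5p (p = 0.00333, adjusted p = 0.848) and 0.43 ± 0.22 in Let7d (p = 0.0625, adjusted p = 1). Without the 3 cells that stand apart the mi699a-5p value was 0.70 (p = 0.00249, adjusted p = 0.298).

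The partners of Mphosph10 varied more among ids. Imp3 stood at 110.4, 176 and 45.7 CPM in NC, 134, 105 and 83.2 in Let7d, 191, 80.8, 78.4 and 190.3 in Let7e and 312, 127, 141 and 179.7 in mi699a-5p. Imp4, which has a let-7 match, gave 266, 311 and 171 CPM in NC, 311, 193 and 189 in Let7d, 167, 204, 237 and 253 in Let7e and 261, 206, 264 and 198 in mi699a-5p. The ranges of the groups overlapped for both. Imp3 had a log2 fold change of 0.78 ± 0.44 in mi699a-5p against NC (p = 0.0921, adjusted p = 0.901), with 1 of the 4 ids, replicate 1, far above the rest.

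Nol7 and Utp15 follow. Nol7, which overlaps Ranbp9 on the other strand over 16.5% of its exon length, stood at 173, 131 and 190.1 CPM in NC, 99.6, 140.0 and 126 in Let7d, 202, 185, 176 and 161 in Let7e and 218, 179, 158 and 112 in mi699a-5p. The highest Let7d id was below the lowest Let7e id (log2 fold change 0.57 ± 0.25, p = 0.0315, adjusted p = 0.924). Reads of Nol7 and Ranbp9 could not be told apart without strand. Utp15, a part of the complex that joins the nascent transcript, gave 111, 138 and 151 CPM in NC, 129.5, 122 and 164 in Let7d, 144, 164, 86.5 and 218 in Let7e and 189.9, 217, 171 and 181 in mi699a-5p. All mi699a-5p ids lay above all NC ids (log2 fold change 0.51 ± 0.27, p = 0.0719, adjusted p = 0.871).

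Rrp7a and Rrp12 both have a let-7 match. Rrp7a, of which 12.5% overlaps Serhl on the other strand, stood at 126, 112 and 105 CPM in NC, 173, 151 and 115 in Let7d, 131, 148, 159 and 211 in Let7e and 112, 69.8, 94.1 and 124 in mi699a-5p. All 4 Let7e ids were above all NC ids (log2 fold change 0.50 ± 0.25, p = 0.0632, adjusted p = 0.999). Rrp12, an export factor of pre-ribosomal particles, gave 117, 224 and 112 CPM in NC, 110.4, 154 and 259 in Let7d, 205, 173, 187 and 198 in Let7e and 232, 217, 178 and 232 in mi699a-5p. Its ranges overlapped in each comparison.

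Utp3 and Nol6 complete the small subunit factors described by sample. Utp3 stood at 202, 286 and 191 CPM in NC, 179.7, 319 and 422 in Let7d, 299, 275, 349 and 309 in Let7e and 318, 197, 196 and 314 in mi699a-5p. Nol6 gave 105, 99.3 and 111 CPM in NC, 121, 101 and 145 in Let7d, 101, 168, 160.0 and 191 in Let7e and 62.5, 144, 181 and 60.0 in mi699a-5p. For both the groups overlapped, and the 2 lowest ids of Nol6 were mi699a-5p replicates 1 and 4.

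Utp14b, an autosomal retrocopy of Utp14a that lies within Acsl3 on the same strand, may share reads with both and is uncertain. It stood at 32.7, 62.7 and 76.4 CPM in NC, 17.3, 16.6 and 79.1 in Let7d, 22.0, 72.4, 71.2 and 62.2 in Let7e and 37.4, 87.5, 41.9 and 35.3 in mi699a-5p. Its ids ran from 16.6 to 87.5 CPM, with low and high ids in NC, Let7d and Let7e alike.

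Of the 13 factors of the large subunit, Nol12 and Nop2 had the smallest p-values. Nol12, an RNA-binding protein with a let-7 match (chromosome 15, 78934933 to 78943638), stood at 81.1, 108 and 81.7 CPM in NC and 94.9, 54.7 and 65.5 in Let7d. It stood at 161, 103, 132 and 102 CPM in Let7e and 128, 113, 50.9 and 78.5 in mi699a-5p. All Let7e ids lay above all Let7d ids, with a log2 fold change of 0.80 ± 0.32 (p = 0.0224, adjusted p = 0.924). Nop2, the methyltransferase of a cytosine of the large rRNA, gave 154, 199 and 106 CPM in NC, 193, 184 and 271 in Let7d, 159.8, 224, 212 and 326 in Let7e and 157, 195, 251 and 309 in mi699a-5p. Against NC its log2 fold change was 0.59 ± 0.29 in Let7e (p = 0.0593, adjusted p = 0.999) and 0.58 ± 0.29 in mi699a-5p (p = 0.0653, adjusted p = 0.871), while the ranges overlapped.

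Rrp15 and Rrp1b encode factors of pre-60S particles. Rrp15 gave 305, 370.2 and 297 CPM in NC, 241, 255 and 234 in Let7d, 317, 184, 240.2 and 232 in Let7e and 358, 206, 238 and 261 in mi699a-5p. All 3 Let7d ids lay below all NC ids and 3 of 4 Let7e ids did too (Let7e against NC: log2 fold change -0.41 ± 0.22, p = 0.0825, adjusted p = 0.999). Rrp1b, with a let-7 match, gave 111, 119 and 87.5 CPM in NC, 114, 107 and 104 in Let7d, 112, 116, 116 and 93.4 in Let7e and 104, 77.6, 113 and 98.5 in mi699a-5p, and its groups overlapped.

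Rrp8, a methyltransferase of the large rRNA, stood at 99.3, 142 and 94.1 CPM in NC, 178, 90.6 and 146 in Let7d, 93.3, 118, 54.9 and 140.3 in Let7e and 109.7, 81.3, 160.1 and 129 in mi699a-5p. The ranges of its groups overlapped in every comparison. Nol4l, with a let-7 match, gave 22.6, 53.8 and 53.1 CPM in NC and 70.6, 40.8 and 27.1 in Let7d. It gave 36.4, 24.0, 34.9 and 79.0 CPM in Let7e and 36.2, 12.6, 29.1 and 83.8 in mi699a-5p. Its standard errors, 0.55 to 0.59, were the largest of the members, and the ids of each group spread widely.

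Nucleophosmin (Npm1) and nucleolin (Ncl) bind pre-rRNA and assembling ribosomes in large amounts. Npm1 stood at 1893, 1968 and 2331 CPM in NC, 1788, 1558 and 1930.4 in Let7d, 1982, 2915, 2328 and 1927 in Let7e and 1910.1, 1675, 1570.2 and 1581 in mi699a-5p. Let7e against Let7d gave 0.38 ± 0.18 (p = 0.0493, adjusted p = 0.924), with 1 of the 4 Let7e ids below the highest Let7d id. Ncl gave 2081, 1584 and 1577 CPM in NC, 1740.4, 1078 and 1728 in Let7d, 1524, 1849.9, 2154 and 1946 in Let7e and 2181, 1538, 1609 and 1420.2 in mi699a-5p, with overlapping groups.

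Polymerase I subunits were past no threshold in a comparison of 2 groups. Polr1c, shared by polymerases I and III, stood at 392, 376 and 298 CPM in NC, 349, 335 and 302 in Let7d, 376, 595, 281 and 536 in Let7e and 308, 379, 366 and 388 in mi699a-5p. In Let7e 2 ids lay above and 1 below all others. The catalytic subunits Polr1a and Polr1b had log2 fold changes of -0.49 ± 0.27 and 0.46 ± 0.27 in Let7e against NC, of opposite sign, with unadjusted p-values of 0.0875 and 0.0992. In the test among the 4 groups Polr1b had an unadjusted p of 0.044 (adjusted p = 0.887).

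The 23 members not described by sample were 11 small subunit factors (Nol10, Nol11, Nop14, Rrp36, Rrp9, Utp11, Utp18, Utp20, Utp23, Utp4 and Utp6), 8 large subunit factors (Bop1, Nol8, Nol9, Nop16, Nop53, Pes1, Rrp1 and Rrs1) and 4 polymerase I subunits (Polr1a, Polr1b, Polr1d and Polr1e). Their levels ran from 10.04 to 97.9 CPM per kb of exon. Their log2 fold changes in the 4 comparisons of 2 groups lay between -0.50 (Nop16, in Let7e against NC) and 0.55 (Utp6, in Let7d against NC), and the smallest unadjusted p was 0.085, of Nop16.

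Members with and without a let-7 match were set side by side. The 8 with a match had a median log2 fold change of -0.040 in Let7d against NC, of 0.19 in Let7e against NC and of -0.10 in mi699a-5p against NC, with 4, 2 and 5 of 8 below 0. The 43 without one had 0.0063, 0.054 and 0.021. Over the 794 genes with a match the medians were 0.051, 0.0052 and 0.072, and over all genes 0.011, 0.019 and 0.045. Members with a match thus lay on both sides of 0 in both let-7 groups. No difference between these sets was tested.

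The rest of the pathway was read from a list of 114 other tested genes of ribosome production, such as polymerase I factors, further assembly factors and the exosome. 0 of 114 passed an adjusted p of 0.05 in any comparison. At an unadjusted p under 0.05, 5 were higher and 1 lower in Let7d against NC, 5 and 1 in Let7e, 7 and 2 in mi699a-5p, and 4 and 2 in Let7e against Let7d. These are 5.26%, 5.26%, 7.89% and 5.26% of the list, against 4.69%, 4.02%, 5.5% and 5.39% of all genes. Their median log2 fold changes were 0.070, 0.084, 0.052 and 0.0046. Mybbp1a, a nucleolar protein that binds transcription factors, stood at 441, 512 and 474 CPM in NC, 589, 604 and 1026 in Let7d, 651, 1089, 969.8 and 815 in Let7e and 759, 518, 864 and 858 in mi699a-5p. Every id of the other 3 groups lay above every NC id, with log2 fold changes of 0.64 ± 0.26, 0.89 ± 0.25 and 0.66 ± 0.24 (unadjusted p = 0.0236, 0.00194 and 0.0148). The NC ids enter all of these values.

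Dis3, the nuclease of the exosome, stood at 47.2, 66.5 and 42.5 CPM in NC and 131, 109 and 97.2 in Let7d. In Let7e it gave 68.3, 54.7, 28.3 and 94.0 CPM and in mi699a-5p 71.8, 58.0, 76.2 and 56.0 CPM. The Let7d ids were above all ids of NC and Let7e (log2 fold change against NC 1.11 ± 0.36, p = 0.00655, adjusted p = 0.886). The other pathway genes with small p-values were Tsr1 (0.72 ± 0.27) and Wdr36 (0.58 ± 0.23) in Let7d against NC and Pno1 (-0.51 ± 0.20) and Pelp1 (0.57 ± 0.24) in Let7e against NC. They were Noc2l (-0.75 ± 0.25) and Wdr36 (0.53 ± 0.21) in mi699a-5p against NC, and Pelp1 (0.76 ± 0.24) and Ddx24 (-0.66 ± 0.27) in Let7e against Let7d.

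Between blastomeres of one mouse id, which need not come from 1 embryo, the members were steadier than most genes of the table. The SD of log2(CPM + 1) between cells of an id had a median of 0.79 over members and of 1.55 over all genes. Since low genes vary more, 4060 genes within the members' range of mean level were taken beside them, with a median of 0.97, and among genes with a read in every cell the medians were 0.72 for 43 members and 0.76 for all. Without the 3 cells that stand apart the members' median was 0.69 and that of all genes 1.51, and without the 3 ids that hold cells of both sexes they were 0.77 and 1.54. Across members, Spearman's rho of mean level and SD was -0.71 (n = 51 genes, which share their libraries), and -0.86 across all genes.

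Nop58 varied least. Its SD was 0.26, the smallest of all 7886 genes, and its cells ran from 417 to 1320 CPM with a median of 752. Without the 3 cells it had rank 3, at 0.26. Next came Npm1 (0.34), Ncl (0.36) and Rrp15 (0.42), at places 16, 29 and 91 among all genes. Fbl followed at 0.45, and the 3 box C/D proteins had a median of 0.45, against 0.80 for box H/ACA, 0.88 for polymerase I, 0.80 for small subunit and 0.83 for large subunit factors. With the 3 cells that stand apart left out these medians were 0.41, 0.69, 0.68, 0.71 and 0.75.

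Utp14b, Rrp8, Nol4l and Nol6 varied most, at 2.13, 1.45, 1.44 and 1.34. Utp14b was at 0 in 8 of 81 cells and reached 422 CPM in 1 cell of mi699a-5p replicate 2. The value of Nol6 rested on the cells that stand apart, in 2 of which it lay far below the other cells of its id (-6.16 and -7.26 on the log2 scale), and without them its SD was 0.82. For Utp14b, Rrp8 and Nol4l the SD without them was 2.11, 1.45 and 1.42.

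**Figure D4:**
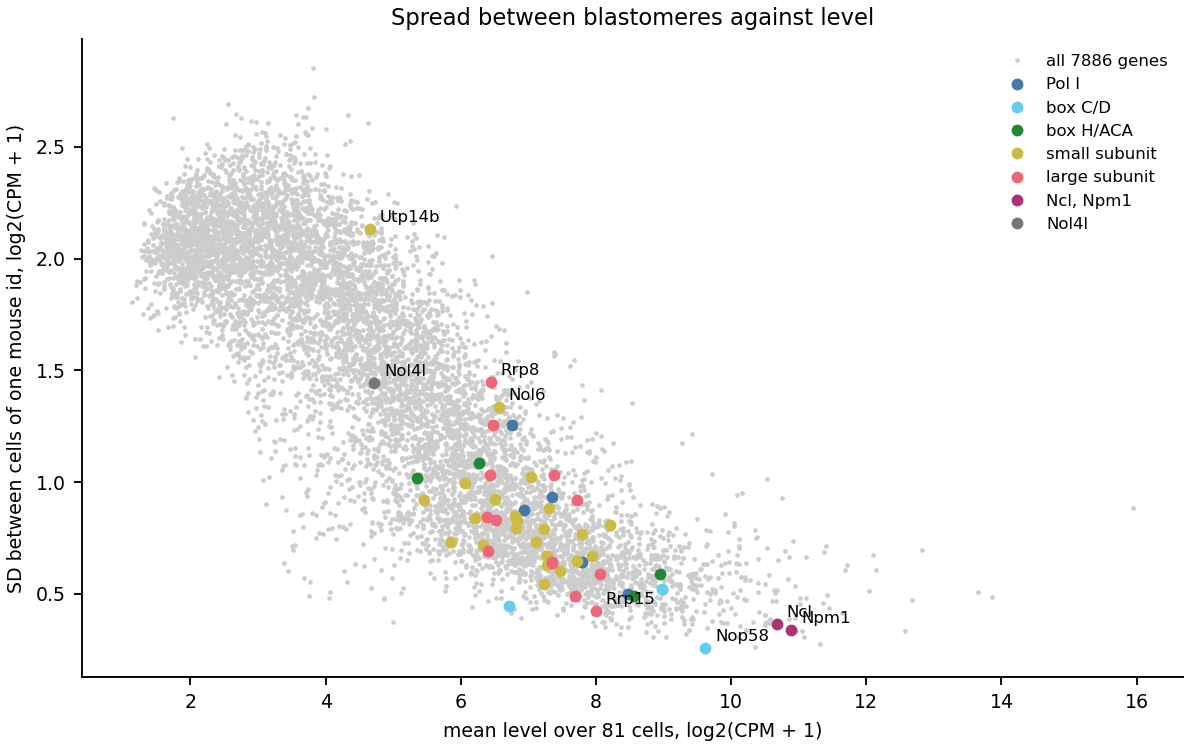
SD of log2(CPM + 1) between cells of one mouse id against the mean level over 81 cells, for all 7886 genes (grey) and the 51 members by role. Members lie along the lower edge and middle of the grey band, with Nop58 (0.26) at the lowest SD of all genes and Utp14b (2.13) the highest of the members.

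By mouse id the median SD of the members lay between 0.39 and 0.68, apart from mi699a-5p replicates 1 (1.02) and 2 (0.998), which hold the 3 cells that stand apart. Of the variance, a median of 9.76% lay between mouse ids of a group for the members. It was 4.39% for all genes and 5.49% for the 4060 genes within the members' range of mean level. Imp3 (40.4%), Nop58 (33.8%), Nol4l (30.9%), Utp18 (30.0%) and Rrp9 (29.9%) had the highest parts. For 12 members (23.5%) it was estimated at 0, against 33.6% of all genes and 31.1% of those within the members' range of level. After removal of the 3 cells that stand apart the medians were 12.0% and 5.05%, and the highest were Imp3 (46.3%), Polr1d (34.9%), Rrp9 (33.2%), Nop58 (32.8%) and Utp18 (32.1%).

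Cells of one mouse id were then read for pairs of members that vary together, as Pearson's r after subtraction of the mean of the id. Over the 1275 pairs of members the median r was 0.040, against 0.017 over pairs of all genes, and the quartiles were -0.14 and 0.20 against -0.088 and 0.12. Without the 3 cells that stand apart the medians were 0.019 and 0.0088. The highest pairs were Polr1d and Nhp2 (r = 0.70, rho = 0.49, 81 cells), Nop2 and Utp4 (r = 0.69, rho = 0.47) and Utp4 and Utp15 (r = 0.68, rho = 0.49). Without those cells the 3 pairs gave 0.53, 0.41 (rank 20) and 0.50, and the pair of Npm1 and Nhp2 stood first at 0.55 (0.62 with them). The lowest was Nol6 with Nhp2, at -0.77 (rho = -0.58) and at -0.53 without the 3 cells. These values share their libraries, and no test was made.

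Utp4 and Utp15 are both subunits of the complex that joins the nascent transcript. They were read as partners because their pair was among the highest of all pairs of members. Its place above the other pairs of partners read here follows from that choice, and no conclusion is drawn from it. No other pair of that complex is given here. Within the H/ACA core, Nhp2 and Nop10 gave 0.58 and Nhp2 and Gar1 0.41 (0.34 and 0.24 without the 3 cells), while Dkc1 gave -0.31 with Nhp2, -0.29 with Nop10 and -0.16 with Gar1 (-0.004, -0.084 and -0.013 without them). Nop56 and Nop58 gave 0.32 and Ncl and Npm1 0.43 (0.30 and 0.33 without them). Fbl gave -0.27 with Nop58 and -0.21 with Nop56 (-0.20 and -0.058). Mphosph10 gave 0.13 with Imp4 and -0.006 with Imp3 (0.17 and 0.004). Imp4 gave -0.070 with Imp3 and Nop10 0.15 with Gar1 (0.18 and -0.050, both of the other sign). Pes1 and Bop1, partners in a complex of the large subunit, gave 0.23 (-0.002 without the 3 cells).

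**Figure D5:**
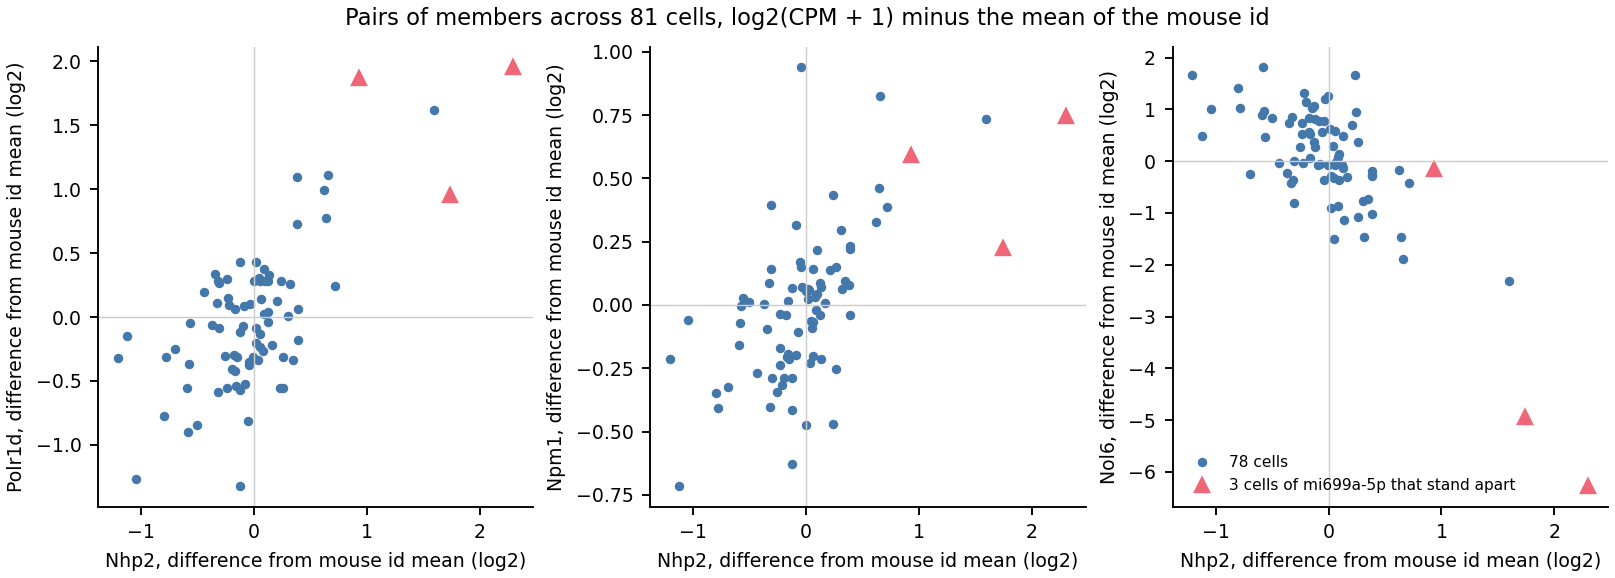
Difference of each cell from the mean of its mouse id in log2(CPM + 1) for Nhp2 (horizontal) against Polr1d, Npm1 and Nol6 (vertical), with 78 cells as circles and the 3 cells of mi699a-5p that stand apart as triangles. All 3 triangles lie high for Polr1d and 2 lie far below the other cells for Nol6, and the slope of the other cells has the same sign.

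In the 3 cells that stand apart, members lay on both sides of the other cells. Against the median of the other cells of their ids, 11, 10 and 8 members lay more than 1 above and 18, 25 and 24 more than 1 below on the log2 scale, in cells E1, F1 and E2. The highest were Polr1d in E1 (2.68) and Nop10 in F1 and E2 (3.43 and 3.46), and the lowest Nop2 in E1 (-5.39) and Nol6 in F1 and E2 (-6.16 and -7.26). Shorter members lay higher in them, with Spearman's rho of exon length and difference of -0.31, -0.28 and -0.50 over 51 members. The part of RNA quality in these cells was not tested.

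The promoters of Nop2 and Utp4, the pair at rank 2 with all cells and rank 20 without the 3 cells that stand apart, are shown because both hold the E-box CACGTG, the site that Myc and related factors bind and that is known from promoters of ribosome biogenesis genes. The E-box reads the same on both strands. It was present in the window from 250 bases before to 50 after the start of 9 of the 41 members with a promoter in the RefSeq table (22.0%), of 12.9% of 6219 genes of the count table and of 8.09% of 27025 genes in all. The other 7 were Imp4, Nol11, Pes1, Rrp7a, Utp14b, Utp18 and Utp20. The windows of both (GRCm38.p6, plus strand) are written 5′ to 3′ with the E-box in capitals, chr6:125131633-125131932 for Nop2 and chr8:106893390-106893689 for Utp4.
Nop2: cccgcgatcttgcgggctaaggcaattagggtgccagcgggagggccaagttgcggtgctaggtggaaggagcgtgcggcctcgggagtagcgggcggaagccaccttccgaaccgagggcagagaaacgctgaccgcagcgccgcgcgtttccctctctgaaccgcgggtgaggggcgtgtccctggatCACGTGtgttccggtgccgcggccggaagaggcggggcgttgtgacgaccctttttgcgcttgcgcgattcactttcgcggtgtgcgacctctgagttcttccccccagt
Utp4: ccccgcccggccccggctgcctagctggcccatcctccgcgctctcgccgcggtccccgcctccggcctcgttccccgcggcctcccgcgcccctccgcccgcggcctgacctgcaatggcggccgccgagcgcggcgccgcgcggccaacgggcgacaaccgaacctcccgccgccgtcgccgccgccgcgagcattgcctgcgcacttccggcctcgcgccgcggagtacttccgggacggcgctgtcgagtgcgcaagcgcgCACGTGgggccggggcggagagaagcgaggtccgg
The E-box began 60 bases before the start of Nop2 and 15 bases after that of Utp4. The match is a description of the letters, and binding there was not measured. Rrp7a and Imp4, of the members with a let-7 match, held an E-box too, as did Utp14b.

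Within mouse ids, the summed share of the members was lower in cells with more ribosomal RNA (r = -0.46, rho = -0.40, 81 cells), and with ribosomal RNA and mitochondrial rows left out of the total the value was -0.13. With sequencing depth it was -0.033. These are descriptions over cells that share libraries. The largest ratio between the highest and lowest cell of an id was 1.43, in Let7e replicate 2, and the smallest 1.04, in mi699a-5p replicate 3.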

How the data were processed

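Single blastomeres were profiled with Smart-seq2, and the deposited table holds read counts per gene, which the authors had filtered on expression. Reads were aligned with STAR to GRCm38.p6, per the submitters' processing notes, and the counting program and annotation are not given in the sources used here. Of 92 cells in the labels 82 had a column (10 were not analysed here), and 1 near-identical pair was merged, leaving 81. Counts were summed per mouse id and tested with edgeR 4.0.16 (R 4.3.3, TMM, quasi-likelihood, all 14 ids in one fit, Benjamini-Hochberg adjustment over 7886 genes), after a test on simulated data. Alternatives used DESeq2 1.42.0, limma 3.58.1, other scalings and filters, and single ids left out. Spread between cells used log2(CPM + 1). Sequences came from RefSeq (GRCm38.p6) and 3′ UTRs from GENCODE annotation of that build. The members and lists were chosen with earlier results of these data known. Genes described by sample were the 8 highest per kb, the 4 smallest p-values per comparison, both snoRNP cores, members with a let-7 match, the 4 smallest and 4 largest SDs, and X-linked members, with 3 pathway genes per comparison. Other per-sample tables were not used.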

Additional observations from a re-analysis of the deposited data

Results flagged for a closer look

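The described members and the summed share of the members were read in 58 groups of 4 mouse ids. In 2 of the 58, 1 id lay far from the other 3 by the gap between it and the nearest id over the range of the group. Nop9 stood at 255.5 CPM in mi699a-5p replicate 4, against 169, 158 and 169.5 CPM in the others. Utp14b stood at 87.5 CPM in mi699a-5p replicate 2, where 1 cell had 422 CPM, against 37.4, 41.9 and 35.3 CPM in the others. Chance marks about 1 in 20 groups in this way, a share that 2 of 58 does not exceed.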

How the results depend on the processing

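Under 518 alternatives 491 values stayed within their spread or on their side of the threshold, and 27 did not. Of the 518, 268 were log2 fold changes of single members, the 4 with the smallest p in each of the 4 comparisons. Of the 268, 0 changed sign. These members were picked by p from the same data, so this says nothing of the direction of the other members. None of these members had a call at first, so each counted as unchanged while it stayed without one. A median fold change of the members counted as unchanged where it moved by less than 0.1004, even across 0. In 85 alternatives for the count of members past an adjusted p of 0.05, 0 gave any member. The count of all genes in Let7d against NC, 1, was 0 with total counts only, with a covariate for Y-linked genes, with limma on the mean over cells and without the 3 cells that stand apart, 2 with DESeq2, and 0 to 1 when 1 id was left out. DESeq2 gave 7 genes in mi699a-5p against NC and 8 in Let7e against Let7d. With 1 id left out these ran from 0 to 2 (2 without mi699a-5p replicate 3) and from 0 to 1 (1 without Let7d replicate 2), and among the 4 groups from 0 to 1 (1 without Let7d replicate 2 or mi699a-5p replicate 3). The members' median log2 fold change in Let7d against NC, 0.0063, was 0.12 with total counts only, -0.13 with the Y-linked covariate, 0.13 with limma, and -0.10 to 0.060 with 1 id left out (lowest without Let7d replicate 1). Without ribosomal RNA and mitochondrial rows the members' shares were 1.55% in NC, 1.56% in Let7e and 1.46% in mi699a-5p. Replicate numbers did not pair the samples: of 19 pairs of same-numbered ids 1 correlated above 0.1 (r from -0.13 to 0.13). With a replicate block the all-gene count in Let7d against NC was 0 and the members' medians were 0.0025, 0.077, -0.038 and 0.050 in the 4 comparisons. With 3 or 4 ids a group and standard errors near 0.28, small differences in single members could not be detected.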
